A study of Homo sapiens with 8 samples.

Results

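Histone genes were followed here in poly(A) RNA of CHP212 cells, a human neuroblastoma line. Members were all genes of the count table whose names start with HIST1H, HIST2H, HIST3H, HIST4H, H2AF, H3F or H1F and that had 20 or more reads summed over the 8 libraries. This rule took 63 of the 25369 genes in the table, out of 91 with such names. Of the other names, 11 had fewer than 20 reads and 17 were listed at 0 in every library. HIST1H2AB with 21 reads and HIST1H2BO with 24 reads lay just inside the limit, and HIST1H4A with 19 reads and HIST1H2AD and HIST1H2BM with 18 reads each lay just outside it. The members were 51 replication-dependent genes (the HIST names), 9 replication-independent genes (the H2AF, H3F and H1F names), H2AFX, the antisense gene H1FX-AS1 and the pseudogene HIST2H2BC.

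The 4 groups were FAM193A-knockout cells given 10 uM Nutlin-3a for 12 h, FAM193A-knockout cells given 0.2% DMSO, WT cells given Nutlin-3a and WT cells given DMSO. Each had 2 biological replicates. Nutlin-3a blocks the binding of MDM2 to p53 and so stabilises p53. The labels name 1 knockout population, so an effect of the knockout and any other difference of that population cannot be told apart. The groups are called KO Nutlin-3a, KO DMSO, WT Nutlin-3a and WT DMSO.

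Most histones are made in bulk during S phase from clustered, intronless, replication-dependent genes, whose mRNAs end in a conserved stem-loop bound by the protein SLBP and normally carry no poly(A) tail. Replication-independent variants are made throughout the cell cycle from dispersed genes with ordinary polyadenylated mRNAs and replace the bulk histones at chosen places in chromatin. Some replication-dependent genes also give a longer, polyadenylated form. H2AFX was kept apart from both classes as a gene that gives both transcript forms. Poly(A) selection therefore measures the replication-independent variants fully, and of the replication-dependent genes and H2AFX mainly the molecules that carry a tail.

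Stem-loops are printed for the replication-dependent genes that most of the read counts or calls below concern. A match shows how much transcript follows it, but a missing match does not place a gene in either class. The histone stem-loop, allowing for its variable stem positions, was searched on the transcript strand in GENCODE v29 transcripts of the GRCh38 build. It was found in 18 of the 51 replication-dependent members, in the pseudogene HIST2H2BC, and in no transcript of the 9 replication-independent members or H2AFX. Over all 58676 genes of that annotation, 29 held it, or 0.0494%. Capitals mark the stem-loop, and HIST3H2A, HIST2H2BE and HIST3H2BB lie on chromosome 1 and the others on chromosome 6.
HIST3H2A: ataaaGGCTCTTTTCAGAGCCaccta
HIST3H2BB: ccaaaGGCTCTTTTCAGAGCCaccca
HIST2H2BE: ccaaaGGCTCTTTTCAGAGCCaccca
HIST1H2BH: ccaaaGGCTCTTTTCAGAGCCactta
HIST1H2AC: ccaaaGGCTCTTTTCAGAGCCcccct
HIST1H2AG: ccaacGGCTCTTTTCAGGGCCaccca
HIST1H4E: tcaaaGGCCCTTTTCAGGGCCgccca

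The H2A and H2B genes in this set shared the same left arm, and HIST1H4E carried the core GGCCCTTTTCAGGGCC, which 5 members held. The core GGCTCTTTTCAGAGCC was held by 12 members and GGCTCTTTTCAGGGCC by 2. The annotated transcript ran on for 390 bases after the stem-loop in HIST3H2A, 1640 bases in HIST1H2BH, 1729 bases in HIST2H2BE, 1917 bases in HIST3H2BB and 1128 bases in HIST1H2AC. Of the 18 replication-dependent members with the stem-loop, 13 had 100 or more bases after it and 9 had the letters AATAAA, the common polyadenylation signal, in that stretch. Many HIST transcripts of the annotation hold the coding part alone, and stem-loops of other letters are not matched. HIST1H3G, HIST1H4I and HIST1H2BF, for example, had no match in transcripts of 2411, 1294 and 1196 bases. No match, also for H2AFX, says only that the pattern is not in those transcripts.

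Levels between genes were compared as RPKM, that is reads scaled to gene length and library depth, as deposited. H3F3B, a gene for the replacement H3 histone, had 574 ± 23.4 RPKM in KO Nutlin-3a, 528 ± 1.95 in KO DMSO, 520 ± 32.2 in WT Nutlin-3a and 561 ± 25.5 in WT DMSO cells (SD, n = 2 each). H2AFZ, a gene for H2A.Z, had 353 ± 13.6 RPKM in KO Nutlin-3a, 614 ± 1.57 in KO DMSO, 310 ± 16.6 in WT Nutlin-3a and 869 ± 16.1 in WT DMSO cells. H2AFZ thus stood above H3F3B in both DMSO groups and below it in both Nutlin-3a groups, beyond the SDs.

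The linker histone variants H1FX and H1F0 followed with means over the 8 libraries of 209 and 156 RPKM. H2AFY, for a macroH2A histone with a large non-histone domain, had 122 RPKM and H2AFX, whose protein is phosphorylated beside DNA breaks, 92.9 RPKM. H2AFY2, the second macroH2A gene, had 54.2 RPKM and H2AFV, the other H2A.Z gene, 37.9 RPKM. H3F3A and H2AFJ had 0.681 and 0.482 RPKM, far below the other variants.

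H3F3A encodes the same protein as H3F3B and had 189 reads over the 8 libraries, against 385446 for H3F3B. Of the 50-base stretches in the H3F3A transcript nearest in length to the gene model of the deposited table, 65.2% occurred in no other annotated gene, and most of the shared stretches were those of H3F3AP4. The sources used here do not say how reads matching several genes were counted. The level of H3F3A is uncertain, and the cause of its low count was not tested.

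Replication-dependent members ranged from 0.166 to 38.9 RPKM with a median of 0.633 RPKM. HIST3H2A, an H2A gene of the small chromosome 1 cluster, held 5009 of their 14163 reads, or 35.4%, and the 10 members with most reads held 80.5%. HIST3H2A, at a mean of 38.9 RPKM, stood beside the replication-independent gene H2AFV, and HIST1H2BH was next at 15.6 RPKM. HIST1H2BK followed at 5.20 RPKM, but of its transcript only 25.9% of the 50-base stretches were its own. In all, 43 members of the 51 had fewer than 200 reads, and 10 had under 50% of such stretches unique.

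**Figure D1:**
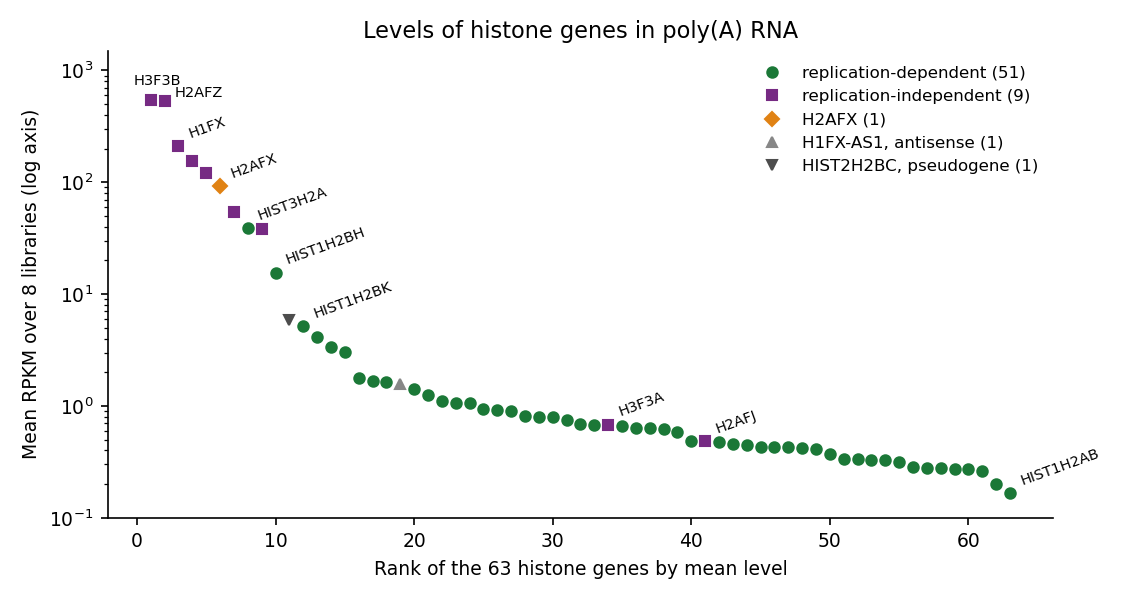
Mean RPKM over 8 libraries (log axis) of the 63 histone genes in order of level, with a symbol for each class. Replication-independent genes and H2AFX fill the upper end, HIST3H2A at 38.9 RPKM is the highest replication-dependent member, and H3F3A and H2AFJ lie among the replication-dependent genes.

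Libraries held 28390405 to 38010075 reads. FAM193A itself had 42.0 and 38.1 CPM (counts scaled to library size with TMM factors) in KO Nutlin-3a and 34.8 and 32.2 in KO DMSO libraries. It had 50.4 and 44.5 CPM in WT Nutlin-3a and 44.1 and 40.0 in WT DMSO libraries. Its transcript was thus still counted in KO cells. With either treatment both KO libraries lay below both WT libraries, and the genotypes overlapped only across treatments. None of 9 neuroblastoma identity genes was at 0 in any library, but some were near it. In WT DMSO cells MYCN had a mean of 3365 CPM, HAND2 602, DBH 0.505 and CHGB 0.219 CPM. In the test described below all 9 differed between KO DMSO and WT DMSO cells, against 61.5% of all tested genes. Their log2 fold changes were -5.54 to 5.90, with 5 higher and 4 lower in KO DMSO cells. TH had a mean of 10.3 CPM in KO DMSO and 479 in WT DMSO cells, and DBH 30.6 and 0.505 CPM. Of 17 marker genes of other cell types, 4 to 7 were at 0 in a library, and nearly all of their summed level was COL1A1, a collagen gene. COL1A1 had 4631 and 4927 CPM in KO Nutlin-3a, 4035 and 3779 in KO DMSO, 4161 and 4163 in WT Nutlin-3a and 3218 and 3311 CPM in WT DMSO libraries. The other 16 markers summed to 6.85 to 7.39 CPM in KO Nutlin-3a, 6.15 to 7.27 in KO DMSO, 3.49 to 4.98 in WT Nutlin-3a and 4.27 to 4.67 CPM in WT DMSO libraries, each at 2.34 CPM or less. Some libraries stood apart from their replicate in genes unrelated to the histones. In WT Nutlin-3a replicate 1 37 genes, in WT DMSO replicate 2 14 and in KO Nutlin-3a replicate 2 10 had 30 or more reads and over 5 times the CPM of the other replicate. No histone gene was among them, which says little for the 43 replication-dependent members with fewer than 200 reads. The origin of these reads was not tested. Their part in the results was not tested beyond leaving out those 3 libraries, as given below.

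Sums are given as RPM, which are reads scaled to library size with TMM factors, as for CPM. Summed over all 51 members, unfiltered, replication-dependent genes had 56.5 and 54.5 RPM in KO Nutlin-3a and 47.6 and 49.6 in KO DMSO libraries. They had 78.1 and 72.7 RPM in WT Nutlin-3a libraries, against 38.9 and 37.9 in WT DMSO libraries. WT Nutlin-3a libraries were the highest of all, WT DMSO libraries the lowest, and no pair of groups overlapped. The ratio of the means was 1.14 in KO and 1.96 in WT cells for Nutlin-3a over DMSO, and KO over WT it was 1.27 in DMSO and 0.736 in Nutlin-3a.

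Without HIST3H2A these ratios were 1.02 in KO and 1.58 in WT cells, and 1.17 in DMSO and 0.753 in Nutlin-3a. The KO groups then overlapped, at 32.8 and 35.0 RPM with Nutlin-3a and 32.6 and 33.9 with DMSO. The 14 members with too few reads to be tested summed to 1.84 ± 0.00919 RPM in KO Nutlin-3a, 1.44 ± 0.0948 in KO DMSO, 3.55 ± 0.706 in WT Nutlin-3a and 1.80 ± 0.156 in WT DMSO cells (SD, n = 2 each).

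By histone type, the 11 replication-dependent H3 genes had 2.47 and 3.01 RPM in KO Nutlin-3a, 1.48 and 1.56 in KO DMSO, 6.92 and 5.93 in WT Nutlin-3a and 2.66 and 2.32 in WT DMSO libraries. The 9 H4 genes had 2.47 and 2.19 RPM in KO Nutlin-3a, 1.79 and 1.71 in KO DMSO, 4.85 and 4.56 in WT Nutlin-3a and 2.83 and 2.28 in WT DMSO libraries. The 13 H2A genes had 28.8 and 23.9 RPM in KO Nutlin-3a, 19.2 and 20.5 in KO DMSO, 38.6 and 36.2 in WT Nutlin-3a and 14.2 and 13.8 in WT DMSO libraries. For these 3 nucleosome core types every WT Nutlin-3a library lay above every other library. The 14 H2B genes had 20.6 and 21.8 RPM in KO Nutlin-3a, 23.3 and 23.2 in KO DMSO, 21.4 and 20.4 in WT Nutlin-3a and 15.0 and 15.4 in WT DMSO libraries, so here WT DMSO libraries stood apart below the rest. The 4 H1 genes had 2.15 and 3.61 RPM in KO Nutlin-3a, 1.82 and 2.57 in KO DMSO, 6.39 and 5.57 in WT Nutlin-3a and 4.27 and 4.0 in WT DMSO libraries, so for H1 both KO groups lay below both WT groups.

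The 9 replication-independent genes summed to 3084 ± 77.8 RPM in KO Nutlin-3a, 3280 ± 12.0 in KO DMSO, 2928 ± 166 in WT Nutlin-3a and 3616 ± 121 in WT DMSO cells (SD, n = 2 each). Nutlin-3a groups lay below their DMSO groups in both genotypes, the opposite side from the replication-dependent sum. Replication-dependent members made up 0.00367% to 0.00758% of all reads and replication-independent members 0.275% to 0.359%.

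**Figure D2:**
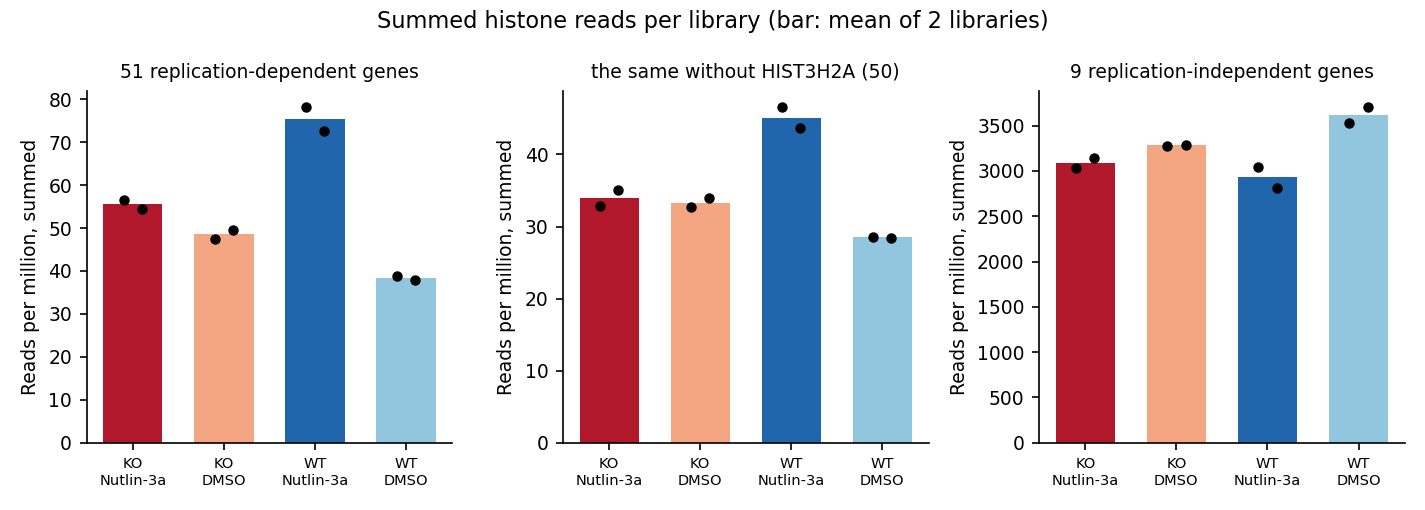
Summed RPM of replication-dependent genes, of the same without HIST3H2A, and of replication-independent genes, in KO Nutlin-3a, KO DMSO, WT Nutlin-3a and WT DMSO cells. Points are libraries and bars their means; WT Nutlin-3a libraries are highest and WT DMSO libraries lowest for the replication-dependent genes, and the order of those 2 groups is the opposite for the replication-independent genes.

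In WT cells, the response to Nutlin-3a was a fall of H2A.Z and H2AFX transcripts and a rise of many replication-dependent transcripts in the poly(A) RNA. A gene was called at a Benjamini-Hochberg adjusted p under 0.05 in edgeR's quasi-likelihood test, over 15879 tested genes. Of 49 tested histone genes 27 were called, 20 higher and 7 lower in WT Nutlin-3a than in WT DMSO cells. That is 55.1%, against a background of 58.6% of all tested genes called, 29.4% higher and 29.2% lower. DESeq2's Wald test called 11 higher and 7 lower. The members' total is near the background, and by class in edgeR's test replication-independent genes counted 2 higher, 4 lower and 3 not called, and replication-dependent genes 18 higher, 1 lower and 18 not called.

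The filter on low counts bears on that last count, because 9 of the 37 tested replication-dependent members passed it through the WT Nutlin-3a libraries alone, and 7 of these 9 are among the 18 called higher. Others, such as HIST2H3D, HIST3H2BB, HIST2H2BF and HIST1H2BJ, had 3 libraries over its cutoff, both of WT Nutlin-3a among them. They too were called higher and would not have passed without that group. Over all 51 members, tested or not, 32 (62.7%) had both WT Nutlin-3a libraries above both WT DMSO libraries and 2 (3.92%) had both below, against 38% and 35.7% of all 17179 genes with 20 or more reads. The mean was higher in WT Nutlin-3a cells for 47 of the 51. With the 3 libraries that held reads of unrelated genes left out, 23 histone genes were called, 15 higher and 8 lower. In that fit 3 groups had 1 library each, whose spread was taken to be that of the remaining pair.

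Among the variants, H2AFZ had 314 and 288 CPM in WT Nutlin-3a, against 834 and 860 CPM in WT DMSO libraries, a log2 fold change of -1.49 ± 0.05 (SE, adjusted p = 1.89e-14). H2AFX had 69.7 and 62.3 CPM in WT Nutlin-3a, against 235 and 239 CPM in WT DMSO libraries, a log2 fold change of -1.84 ± 0.06 (adjusted p = 6.28e-15). Both transcripts were far apart between the groups, with replicates close together. In bulk RNA, fewer cells that express a gene and less of its RNA per cell cannot be told apart.

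H2AFV fell by 0.68 ± 0.05 on the log2 scale (SE, adjusted p = 4.63e-10). H1FX fell by 0.38 ± 0.05 (adjusted p = 4.89e-06) and H2AFY2 by 0.21 ± 0.05 (adjusted p = 0.0025). H1F0, a linker histone known to accumulate in cells that stop dividing, rose with 431 and 414 CPM in WT Nutlin-3a, against 309 and 318 CPM in WT DMSO libraries, a log2 fold change of 0.43 ± 0.05 (adjusted p = 1.52e-07). H2AFY was higher by 0.15 ± 0.04 (adjusted p = 0.00613). H3F3B, H3F3A and H2AFJ did not pass the test, with log2 fold changes of -0.12, -0.44 and 0.02.

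Shares were taken of the RPKM summed over H2AFZ, H2AFV, H2AFX, H2AFY, H2AFY2 and H2AFJ, the H2A variant genes. H2AFZ made up 56.1% and 55.4% of it in WT Nutlin-3a, against 70.7% and 71.0% in WT DMSO libraries. H2AFY made up 23.7% and 24.8% in WT Nutlin-3a, against 9.87% and 9.79% in WT DMSO libraries. In KO cells H2AFZ made up 55.5% and 57.4% with Nutlin-3a, against 63.7% and 63.3% with DMSO, and H2AFY 17.7% and 17.8% with Nutlin-3a, against 12.6% and 12.5% with DMSO. In both genotypes the Nutlin-3a libraries had the lower H2AFZ share and the higher H2AFY share, with no overlap.

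HIST3H2A had 31.6 and 29.1 CPM in WT Nutlin-3a, against 10.4 and 9.45 CPM in WT DMSO libraries. The groups did not overlap, and the log2 fold change was 1.61 ± 0.10 (adjusted p = 1.22e-10). HIST2H2BE, an H2B gene known for a polyadenylated form, had 4.85 and 5.28 CPM in WT Nutlin-3a, against 2.202 and 2.25 CPM in WT DMSO libraries (log2 fold change 1.19 ± 0.17, adjusted p = 5.55e-06). HIST1H2AC, an H2A gene, had 1.05 and 1.55 CPM in WT Nutlin-3a, against 0.460 and 0.702 CPM in WT DMSO libraries (log2 fold change 1.16 ± 0.37, adjusted p = 0.0112), and its adjusted p reached 0.112 with WT DMSO replicate 1 or WT Nutlin-3a replicate 2 left out. HIST1H2BD rose by 0.55 ± 0.19 (adjusted p = 0.018), but lost its call in 4 of 14 alternative fits, which include those without WT Nutlin-3a replicate 1 and without WT DMSO replicate 2 (adjusted p up to 0.307).

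The largest fold changes were those of H3, H4 and H2B genes with few reads. HIST2H3D had 0.758 and 1.44 CPM in WT Nutlin-3a, against 0.131 and 0.176 CPM in WT DMSO libraries (log2 fold change 2.80 ± 0.61, adjusted p = 0.000677), though only 19.6% of its 50-base stretches were its own. HIST1H3E had 0.923 and 0.611 CPM in WT Nutlin-3a, against 0.131 and 0.140 CPM in WT DMSO libraries (log2 fold change 2.47 ± 0.53, adjusted p = 0.000582). HIST1H4E had 1.29 and 0.970 CPM in WT Nutlin-3a, against 0.329 and 0.211 CPM in WT DMSO libraries (log2 fold change 2.05 ± 0.45, adjusted p = 0.000772). In each of the 3 the groups did not overlap. HIST2H3D would not have passed the filter without its WT Nutlin-3a libraries, so its call lends the direction no support.

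The same direction was called for HIST3H2BB (log2 fold change 2.11), HIST2H2BF (2.32), HIST1H2AE (1.52), HIST1H3I (2.12) and HIST1H2BI (2.14), with adjusted p of 0.00156 to 0.0116. HIST1H3I and HIST1H2BI passed the filter through the WT Nutlin-3a libraries alone, the side on which they are high, so their calls lend the direction no support. The same holds for HIST3H2BB and HIST2H2BF, which needed those libraries to pass. In the HIST2H2BF transcript nearest in length to the deposited gene model, 36.5% of the 50-base stretches were its own. Of the 5, HIST2H2BF lost its call without WT DMSO replicate 2 (adjusted p up to 0.0805), HIST1H2AE without WT DMSO replicate 1 or WT Nutlin-3a replicate 1 (up to 0.102), HIST1H3I without either WT DMSO library (up to 0.0718) and HIST1H2BI without WT DMSO replicate 2 or WT Nutlin-3a replicate 2 (up to 0.199). HIST1H2AE and HIST1H2BI were also not called by DESeq2's Wald test, nor HIST1H2AE with the 3 libraries left out. HIST1H2BK, HIST1H1C, HIST2H2AC, HIST1H2AG and HIST1H4I, all among the 10 with most reads, did not pass the test, with log2 fold changes of -0.19 to 0.47. HIST1H2BH, an H2B gene, was the exception: it had 3.26 and 2.62 CPM in WT Nutlin-3a, against 4.24 and 5.02 CPM in WT DMSO libraries. It fell by 0.65 ± 0.17 on the log2 scale (adjusted p = 0.00303).

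**Figure D3:**
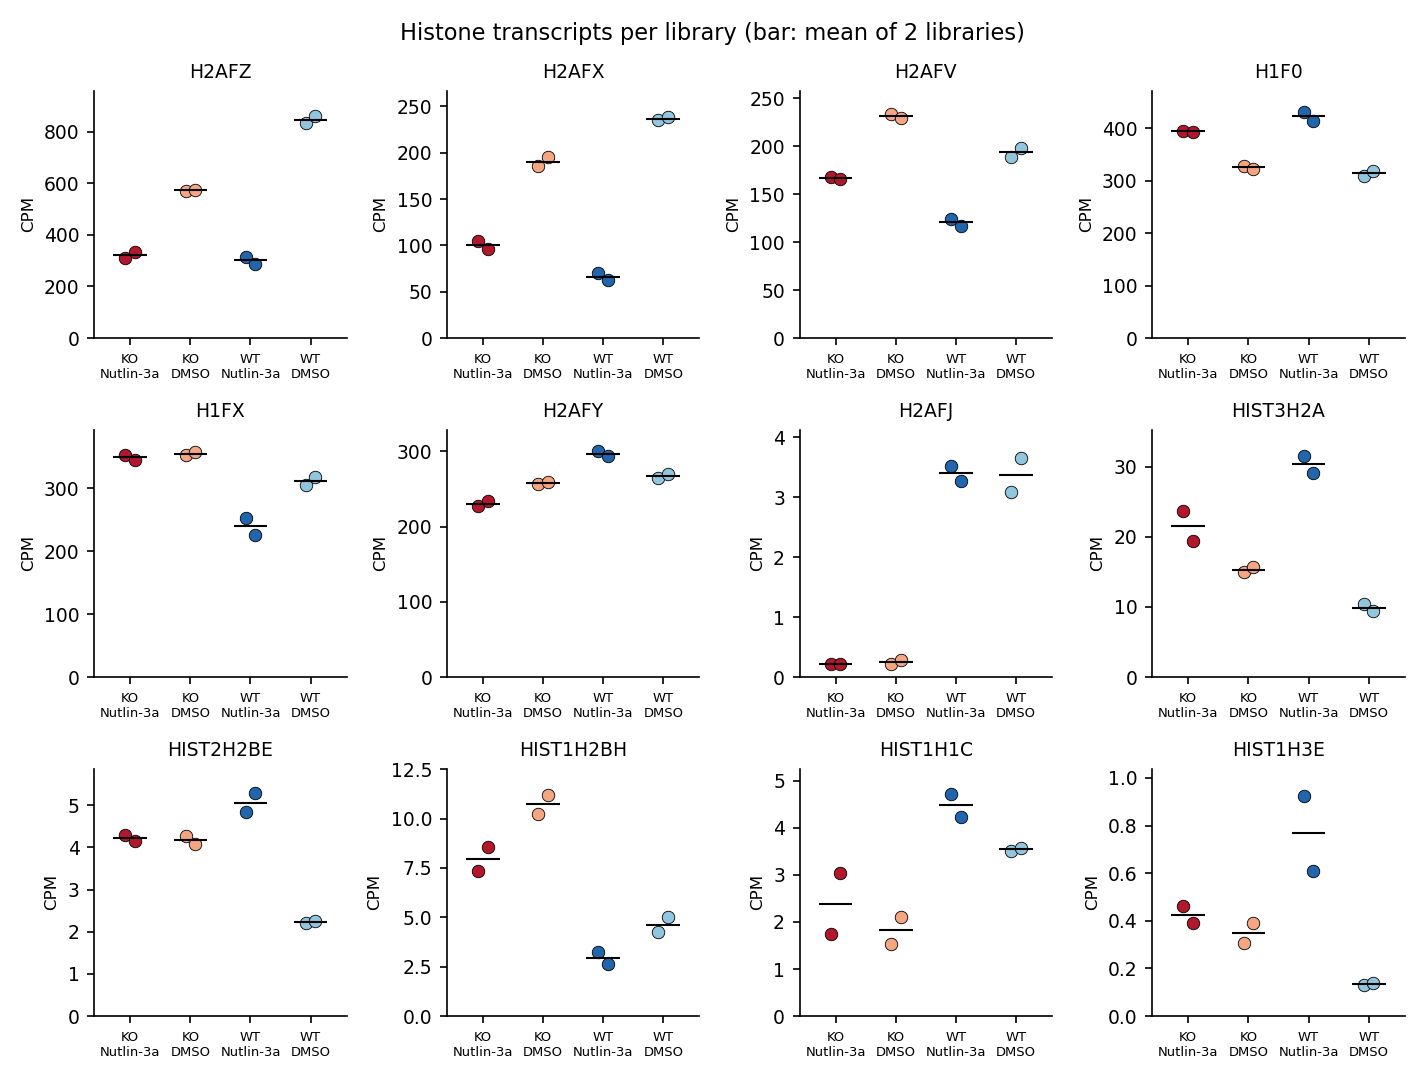
CPM in each library (points; bars are means of 2) of H2AFX, 6 replication-independent and 5 replication-dependent histone genes, each on its own axis starting at 0. H2AFZ and H2AFX are lower in both Nutlin-3a groups, HIST3H2A is highest in WT Nutlin-3a libraries at 31.6 and 29.1 CPM, and H2AFJ is near 0 in both KO groups.

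In KO cells, H2AFZ and H2AFX fell again and few replication-dependent genes were called. Of the 49 tested histone genes 9 were called (18.4%), 3 higher and 6 lower in KO Nutlin-3a than in KO DMSO cells, against a background of 38.7%, of which 18.1% higher and 20.6% lower. Replication-independent genes counted 1 higher, 3 lower and 5 not called, and replication-dependent genes 2 higher, 1 lower and 34 not called. Over all 51 replication-dependent members, 17 (33.3%) had both KO Nutlin-3a libraries above both KO DMSO libraries and 5 (9.80%) had both below, against 33.5% and 35.5% of genes with 20 or more reads. The higher share is near the background.

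H2AFZ had 312 and 332 CPM in KO Nutlin-3a, against 571 and 574 CPM in KO DMSO libraries (log2 fold change -0.83 ± 0.05, adjusted p = 2.02e-10). H2AFX had 105 and 95.6 CPM in KO Nutlin-3a, against 186 and 195 CPM in KO DMSO libraries (log2 fold change -0.93 ± 0.06, adjusted p = 1.69e-10). Neither gene overlapped between the groups. H2AFV fell by 0.47 ± 0.05 (adjusted p = 1.58e-07) and H2AFY by 0.16 ± 0.04 (adjusted p = 0.00761), while H1F0 rose by 0.28 ± 0.05 (adjusted p = 6.5e-05). H2AFY2, H1FX, H3F3B, H3F3A and H2AFJ did not pass the test, with log2 fold changes of -0.06, -0.02, 0.09, 0.13 and -0.25. The call for H2AFY was lost with KO DMSO replicate 1, KO DMSO replicate 2 or KO Nutlin-3a replicate 1 left out.

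HIST3H2A had 23.7 and 19.4 CPM in KO Nutlin-3a, against 14.9 and 15.7 CPM in KO DMSO libraries (log2 fold change 0.50 ± 0.10, adjusted p = 0.00039). HIST1H2BH had 7.33 and 8.56 CPM in KO Nutlin-3a, against 10.3 and 11.2 CPM in KO DMSO libraries (log2 fold change -0.44 ± 0.13, adjusted p = 0.00959), a call lost without KO DMSO replicate 2 or KO Nutlin-3a replicate 1 and in DESeq2's Wald test (adjusted p up to 0.136). HIST1H3H was called higher at the edge of the threshold (log2 fold change 1.26 ± 0.48, adjusted p = 0.0479) and lost the call in 8 of 14 alternative fits. HIST2H2BE had 4.29 and 4.15 CPM in KO Nutlin-3a, against 4.28 and 4.07 CPM in KO DMSO libraries, and the values overlapped.

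The difference of the 2 responses was tested directly, as the KO response minus the WT response. It was called for 9 of the 49 histone genes (18.4%), 4 higher and 5 lower, against a background of 27.5%, 14.2% higher and 13.4% lower. The KO response lay above the WT response for H2AFX (difference 0.92 ± 0.08 on the log2 scale, adjusted p = 1.69e-07), H2AFZ (0.66 ± 0.07, adjusted p = 1.99e-06), H1FX (0.36 ± 0.07, adjusted p = 0.0013) and H2AFV (0.21 ± 0.07, adjusted p = 0.0223). These are genes that fell in WT cells and fell less, or did not pass the test, in KO cells.

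The KO response lay below the WT response for HIST3H2A (-1.11 ± 0.14, adjusted p = 1.03e-05), HIST2H2BE (-1.17 ± 0.22, adjusted p = 0.000599), HIST1H2AC (-1.66 ± 0.50, adjusted p = 0.0196), HIST1H3E (-2.18 ± 0.72, adjusted p = 0.0303) and H2AFY (-0.31 ± 0.06, adjusted p = 0.000985). HIST1H3E lost this call in 10 of 14 alternative fits, and HIST1H2AC and H2AFV lost theirs in 5 each. No replication-dependent member was called higher for this difference, and 33 of the 37 tested were not called.

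**Figure D4:**
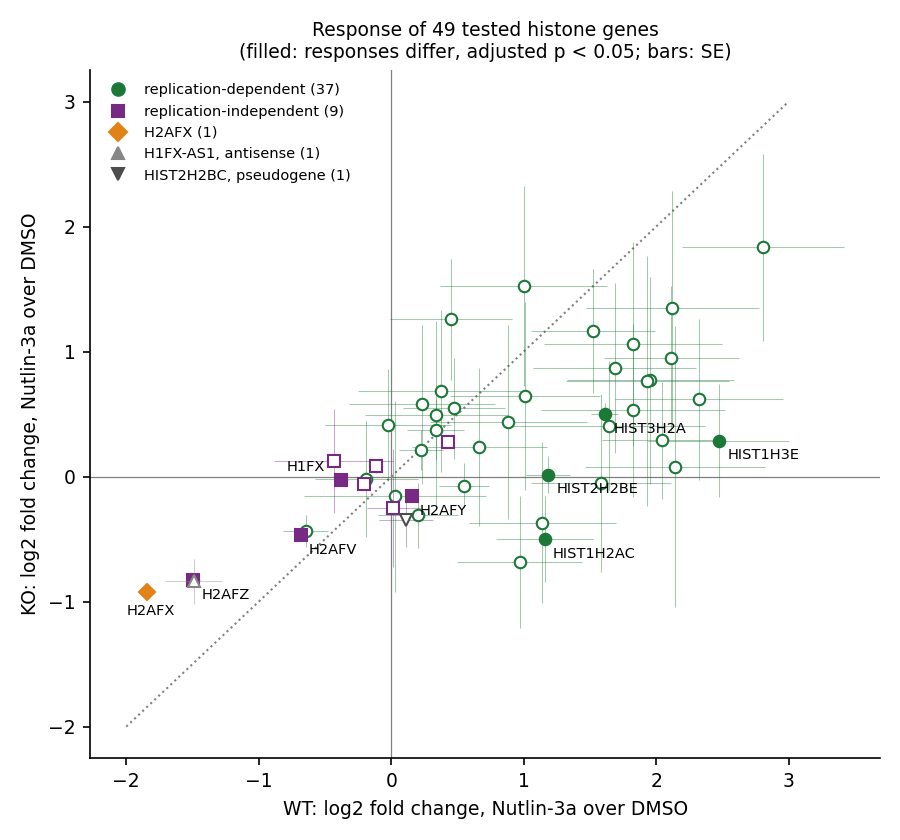
Log2 fold change of Nutlin-3a over DMSO in WT cells (x axis) and in KO cells (y axis) for the 49 tested histone genes, with SE bars and a dotted line where both are equal. Filled symbols are the 9 genes whose responses differed at adjusted p under 0.05; H2AFX and H2AFZ lie at the lower left above the line, and HIST3H2A, HIST2H2BE, HIST1H2AC and HIST1H3E lie at the right below it.

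With DMSO, KO cells differed from WT cells in 14 histone genes, with calls in both directions in each class. These were 28.6% of the 49 tested, 7 higher and 7 lower in KO DMSO than in WT DMSO cells, against a background of 61.5%, 31.4% higher and 30.1% lower. Replication-independent genes counted 3 higher, 3 lower and 3 not called, and replication-dependent genes 4 higher, 3 lower and 30 not called. Over all 51 replication-dependent members, 9 (17.6%) were higher without overlap and 15 (29.4%) lower, against 41.1% and 38.7% of genes with 20 or more reads. These comparisons share their control libraries with those of the responses above.

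H2AFJ, an H2A variant gene, had 8 and 11 reads in KO DMSO libraries, against 94 and 104 reads in WT DMSO libraries. With Nutlin-3a it had 8 and 7 reads in KO libraries, against 107 and 91 reads in WT libraries. The genotypes were far apart under either treatment, at log2 fold changes of -3.70 ± 0.29 with DMSO and -3.97 ± 0.30 with Nutlin-3a (adjusted p = 2.94e-09 and 1.87e-09), and all 50-base stretches of its longest transcript were its own. H2AFJ passed the filter on low counts through the WT libraries alone, the side on which it is high. Its genotype calls are therefore not independent of the filter. The Nutlin-3a response of H2AFJ was not called in either genotype.

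H2AFZ, at 571 and 574 CPM in KO DMSO and 834 and 860 CPM in WT DMSO libraries, was lower in KO cells (log2 fold change -0.56 ± 0.05, adjusted p = 1.78e-08). H2AFX was lower by a log2 fold change of -0.32 ± 0.05 (adjusted p = 6.38e-05) and H3F3B by -0.15 ± 0.06 (adjusted p = 0.0238). H2AFV, H1FX and H2AFY2 were higher in KO cells by 0.26, 0.19 and 0.17 (adjusted p = 9.82e-05, 0.00469 and 0.00949). Some of these small differences depended on the fit: H3F3B lost its call in 4 of 14 alternative fits, with upper-quartile factors and with WT DMSO replicate 2 or either KO DMSO library left out, H2AFY2 lost it in 2 and H1FX in 1.

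HIST1H2BH had 10.3 and 11.2 CPM in KO DMSO, against 4.24 and 5.02 CPM in WT DMSO libraries (log2 fold change 1.21 ± 0.14, adjusted p = 4.14e-07). HIST2H2BE had 4.28 and 4.07 CPM in KO DMSO, against 2.202 and 2.25 CPM in WT DMSO libraries (log2 fold change 0.91 ± 0.16, adjusted p = 0.000107). HIST3H2A was higher by 0.62 ± 0.11 (adjusted p = 5.57e-05) and HIST2H2AC by 0.72 ± 0.28 (adjusted p = 0.0317). HIST1H1C, a gene for a main linker histone, had 1.54 and 2.101 CPM in KO DMSO, against 3.52 and 3.58 CPM in WT DMSO libraries (log2 fold change -0.96 ± 0.24, adjusted p = 0.00178). HIST1H4I and HIST1H3G were lower by -1.17 and -1.66 (adjusted p = 0.0204 and 0.0375). HIST1H3G had 3 libraries over the filter cutoff, both of WT DMSO among them, and would not have passed without that group. Its call is therefore not independent of the filter. HIST2H2AC, HIST1H4I and HIST1H3G lost their calls in 6, 4 and 8 of 14 alternative fits.

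With Nutlin-3a, KO cells had lower levels of many replication-dependent genes than WT cells, while calls among the variants went both ways. Of the 49 tested histone genes 29 were called (59.2%), 6 higher and 23 lower in KO Nutlin-3a than in WT Nutlin-3a cells, against a background of 63.1%, 32.7% higher and 30.4% lower. DESeq2's Wald test called 6 higher and 14 lower. Replication-independent genes counted 3 higher, 2 lower and 4 not called, and replication-dependent genes 1 higher, 20 lower and 16 not called. The 9 members that passed the filter through the WT Nutlin-3a libraries alone, the high side of this contrast, hold 7 of the 20 lower calls. HIST2H3D, HIST3H2BB, HIST2H2BF, HIST1H2AI, HIST1H2BG and HIST1H3D, which needed those libraries to pass, are among the other lower calls. None of these calls is independent of the filter. Over all 51 replication-dependent members, 35 (68.6%) had both KO libraries below both WT libraries and 2 (3.92%) had both above, against 36.8% and 40% of genes with 20 or more reads, and the mean was lower in KO Nutlin-3a cells for 44.

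The number of calls depended on the libraries. With the 3 libraries that held reads of unrelated genes left out it was 16, of which 6 higher and 10 lower, and without KO Nutlin-3a replicate 1 or KO Nutlin-3a replicate 2 it was 19. HIST3H2A had 23.7 and 19.4 CPM in KO Nutlin-3a, against 31.6 and 29.1 CPM in WT Nutlin-3a libraries (log2 fold change -0.49 ± 0.09, adjusted p = 0.000137). HIST1H2BI had 0.0815 and 0.0301 CPM in KO Nutlin-3a, against 0.330 and 0.755 CPM in WT Nutlin-3a libraries (log2 fold change -3.15 ± 0.75, adjusted p = 0.00133), but is one of those 9 members, so its call is not independent of the filter. HIST1H1C was lower by -0.92 ± 0.22 (adjusted p = 0.00148). HIST2H2BE, higher in KO cells with DMSO, did not pass the test here (log2 fold change -0.26 ± 0.15, adjusted p = 0.128). Nor did HIST1H2BK, HIST1H2BD, HIST2H2AC and HIST1H2AG. HIST1H2AC was lower by -0.88 ± 0.34 (adjusted p = 0.0327) and HIST1H4I by -1.004 ± 0.43 (adjusted p = 0.0492), calls lost in 4 and 11 of 14 alternative fits.

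HIST1H3C, HIST1H4B, HIST1H4E, HIST1H3I, HIST3H2BB, HIST2H3D and HIST1H3B were also lower in KO cells, with log2 fold changes of -2.64 to -1.40 and adjusted p of 0.00153 to 0.00944. Of these, HIST1H3C, HIST1H4B, HIST1H3I and HIST1H3B are also among the 9 that passed the filter through the WT Nutlin-3a libraries alone. HIST3H2BB and HIST2H3D would also not have passed it without those libraries. With 1 library left out, calls were lost by HIST1H3C (without WT Nutlin-3a replicate 1, adjusted p up to 0.142), HIST1H3B (WT Nutlin-3a replicate 1 or KO Nutlin-3a replicate 1, up to 0.195) and HIST2H3D (WT Nutlin-3a replicate 2 or KO Nutlin-3a replicate 1, up to 0.163). The same held for HIST1H4E (WT Nutlin-3a replicate 1 or KO Nutlin-3a replicate 2, up to 0.137), HIST3H2BB (WT Nutlin-3a replicate 2 or KO Nutlin-3a replicate 2, up to 0.124) and HIST1H3I (KO Nutlin-3a replicate 1, up to 0.104). With the 3 libraries left out together, HIST1H4B (adjusted p up to 0.0579), HIST1H3C, HIST1H3B, HIST1H4E and HIST3H2BB lost theirs. HIST1H2BH was again opposite, at 7.33 and 8.56 CPM in KO Nutlin-3a, against 3.26 and 2.62 CPM in WT Nutlin-3a libraries (log2 fold change 1.42 ± 0.15, adjusted p = 1.99e-07). The pseudogene HIST2H2BC was lower by -0.80 ± 0.21 (adjusted p = 0.00298). Only 20.3% of the 50-base stretches in its transcript nearest in length to the deposited gene model occurred in no other annotated gene. Of the 9 identity genes given above, 8 also differed between the genotypes with Nutlin-3a, against 63.1% of all tested genes. Their part in these contrasts was not tested.

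Of the variants, H2AFX had 105 and 95.6 CPM in KO Nutlin-3a, against 69.7 and 62.3 CPM in WT Nutlin-3a libraries (log2 fold change 0.60 ± 0.06, adjusted p = 5.57e-08). H1FX had 353 and 345 CPM in KO Nutlin-3a, against 253 and 226 CPM in WT Nutlin-3a libraries (log2 fold change 0.54 ± 0.05, adjusted p = 4.29e-08). H2AFV and H2AFY2 were higher by 0.47 and 0.32 (adjusted p = 8.1e-08 and 3.86e-05), and H2AFY was lower by -0.37 ± 0.04 (adjusted p = 8.37e-07). H2AFJ was far lower, as given above. H2AFZ did not pass the test, at a log2 fold change of 0.10 ± 0.05 (adjusted p = 0.102), nor did H1F0 at -0.10 ± 0.05 (adjusted p = 0.063).

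H1FX-AS1, the antisense gene beside H1FX, had 2.42 and 3.34 CPM in KO Nutlin-3a and 5.20 and 5.03 CPM in KO DMSO libraries. It had 1.55 and 1.51 CPM in WT Nutlin-3a, against 3.71 and 4.92 CPM in WT DMSO libraries. It fell with Nutlin-3a in KO cells (log2 fold change -0.84 ± 0.18, adjusted p = 0.00109) and in WT cells (-1.49 ± 0.22, adjusted p = 8.79e-06), and the test of the difference of these responses gave an adjusted p of 0.0996. The libraries were strand-specific, but no source used here gives the strand setting of the counting, and reads of the pair may not be fully separated.

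The genes that end, carry and load histones were counted from 2 lists. Of 18 genes for histone mRNA synthesis and 3′-end processing, 0 rose and 8 fell in KO cells with Nutlin-3a, against 18.1% and 20.6% of all tested genes, at a median log2 fold change of -0.17 against -0.01 over all tested genes. In WT cells 4 rose and 11 fell, against 29.4% and 29.2%, at a median of -0.44 against 0.02 over all tested genes. SLBP, which binds the stem-loops printed above, had 69.4 and 68.0 CPM in KO Nutlin-3a, 117 and 120 in KO DMSO, 52.8 and 52.9 in WT Nutlin-3a and 152 and 163 CPM in WT DMSO libraries. It fell in KO cells (log2 fold change -0.78 ± 0.05, adjusted p = 3.15e-10) and in WT cells (-1.57 ± 0.05, adjusted p = 7.78e-15), and the responses differed by 0.79 ± 0.07 (adjusted p = 2.16e-07).

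CASP8AP2, or FLASH, a part of the histone cleavage machinery, had 46.2 and 47.8 CPM in KO Nutlin-3a, 67.0 and 69.5 in KO DMSO, 23.8 and 26.1 in WT Nutlin-3a and 61.0 and 60.2 CPM in WT DMSO libraries. It fell in both genotypes, and the responses differed by 0.74 ± 0.08 (adjusted p = 2.8e-06). ERI1, an exonuclease that trims the stem-loop end, fell by 0.57 in KO and 0.97 in WT cells (adjusted p = 1.05e-06 and 3.97e-10). Between the genotypes with Nutlin-3a, 8 of the 18 were higher in KO than in WT cells and 3 lower, against 32.7% and 30.4% of all tested genes. CASP8AP2 was higher by 0.91, ZNF473 by 0.64 and SLBP by 0.38. With DMSO 5 were higher and 10 lower, against 31.4% and 30.1%, among them SLBP at -0.41 and the cap-complex genes NCBP1 and SRRT, each at -0.32. The difference of the responses was called for 7 of the 18, all higher in KO cells, against 14.2% of all tested genes called higher and 13.4% lower.

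Of 30 genes for histone chaperones and deposition, a list that also holds CENPA, the centromeric H3 variant, 0 rose and 22 fell in KO cells with Nutlin-3a, against 18.1% and 20.6% of all tested genes. In WT cells 4 rose and 22 fell, against 29.4% and 29.2%. CHAF1B, a subunit of the complex that loads new H3 and H4 behind the replication fork, had 15.0 and 15.1 CPM in KO Nutlin-3a, 35.4 and 36.6 in KO DMSO, 5.27 and 5.18 in WT Nutlin-3a and 44.0 and 46.0 CPM in WT DMSO libraries. Its responses differed by 1.84 ± 0.11 (adjusted p = 2.3e-09). Its partner CHAF1A fell by 1.39 in KO and 2.11 in WT cells, and NASP, a carrier of H3 and H4, by 0.76 in KO and 1.48 in WT cells. With Nutlin-3a 16 of the 30 were higher and 6 lower in KO than in WT cells, against 32.7% and 30.4% of all tested genes. With DMSO 2 were higher and 14 lower, against 31.4% and 30.1%. The responses differed for 20, against 27.5%, and 18 of these were higher in KO cells, against 14.2%.

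Of 12 S-phase genes such as RRM2, CDC6 and CCNA2, 10 fell and 1 rose in KO cells with Nutlin-3a, against 20.6% and 18.1% of all tested genes, and 12 fell in WT cells, against 29.2%. The median log2 fold changes were -1.22 in KO and -2.34 in WT cells. The lower SLBP, chaperone and S-phase transcripts stood beside a higher poly(A) level of replication-dependent genes in the same WT Nutlin-3a libraries, and how these are related was not tested.

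**Figure D5:**
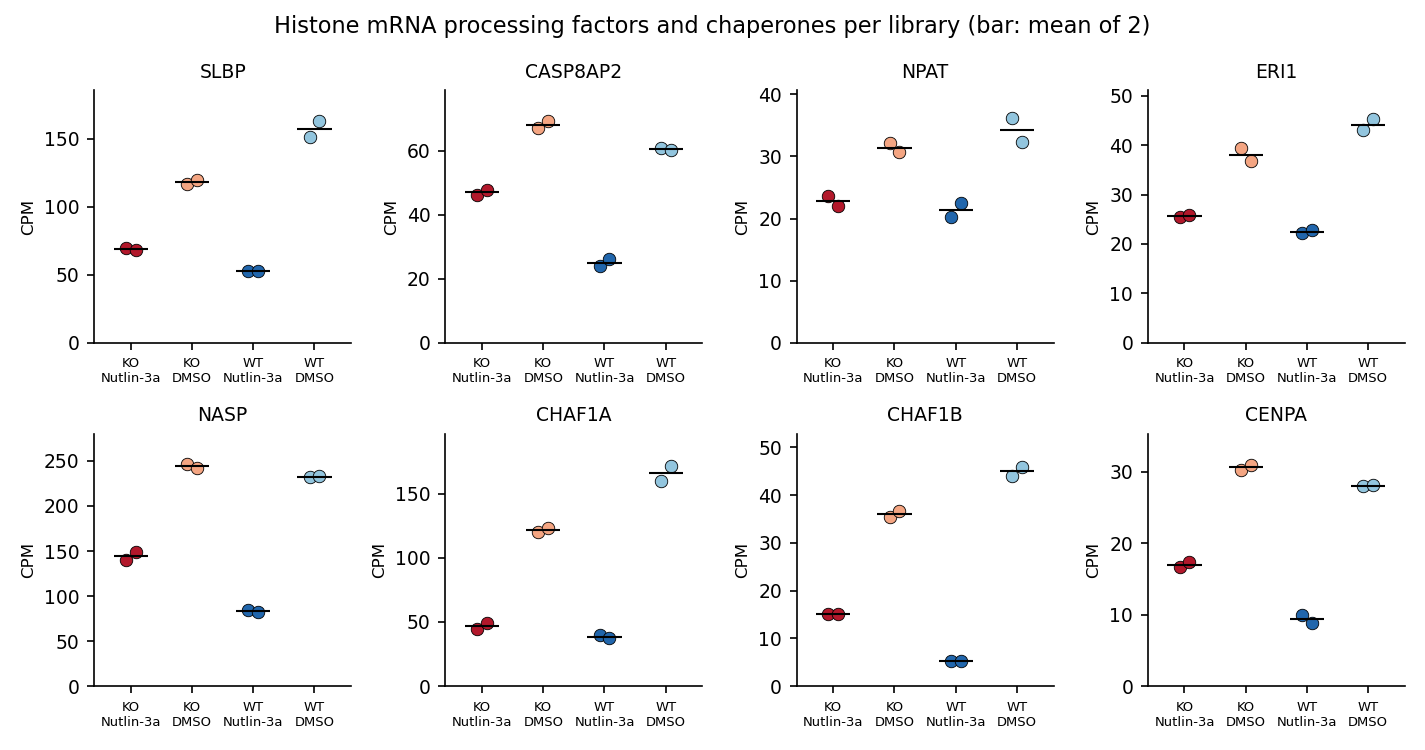
CPM in each library (points; bars are means of 2) of 4 histone mRNA processing genes (upper row) and 4 genes for chaperones or the centromeric H3 variant (lower row), axes starting at 0. Levels are lower in the Nutlin-3a group of each genotype, and for CHAF1B the WT Nutlin-3a libraries, at 5.27 and 5.18 CPM, lie below the KO Nutlin-3a libraries at 15.0 and 15.1 CPM.

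Promoters are printed for 2 replication-dependent genes that moved in opposite directions and for H2AFX and H2AFZ, the variants with the largest falls in WT cells, so that their sequence elements can be set side by side. They come from RefSeq (GRCh38.p14), which had a promoter of 250 bases before and 50 bases after the start for 52 of the 63 members. The search covered both strands for CCAAT (the box bound by NF-Y), for TTTGAA and its variant TTCGAA (letters of a cell-cycle element), for TTTCGCGC (a form of the E2F site), for ATTTGCAT (the octamer) and for TATAAA (the TATA box). Overlapping matches of different motifs were each counted. Capitals mark every match, so that ATTGG is CCAAT on the other strand and TTCAAA is TTTGAA on the other strand. HIST3H2A lies at chr1:228457824-228458123 (minus strand), HIST1H2BH at chr6:26251364-26251663 (plus strand), H2AFZ at chr4:99950226-99950525 (minus strand) and H2AFX at chr11:119095416-119095715 (minus strand).
HIST3H2A: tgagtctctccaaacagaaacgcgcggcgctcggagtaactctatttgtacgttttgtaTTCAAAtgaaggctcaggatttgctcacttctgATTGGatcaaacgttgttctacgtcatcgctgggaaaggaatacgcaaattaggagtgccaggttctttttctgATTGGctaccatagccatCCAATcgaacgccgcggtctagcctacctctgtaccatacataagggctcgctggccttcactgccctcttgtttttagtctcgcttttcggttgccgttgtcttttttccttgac
HIST1H2BH: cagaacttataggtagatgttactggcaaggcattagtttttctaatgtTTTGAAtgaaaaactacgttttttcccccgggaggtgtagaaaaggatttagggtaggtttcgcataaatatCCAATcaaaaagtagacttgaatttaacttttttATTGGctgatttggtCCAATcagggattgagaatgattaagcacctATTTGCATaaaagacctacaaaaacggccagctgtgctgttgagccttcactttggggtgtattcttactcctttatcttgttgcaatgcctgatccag
H2AFZ: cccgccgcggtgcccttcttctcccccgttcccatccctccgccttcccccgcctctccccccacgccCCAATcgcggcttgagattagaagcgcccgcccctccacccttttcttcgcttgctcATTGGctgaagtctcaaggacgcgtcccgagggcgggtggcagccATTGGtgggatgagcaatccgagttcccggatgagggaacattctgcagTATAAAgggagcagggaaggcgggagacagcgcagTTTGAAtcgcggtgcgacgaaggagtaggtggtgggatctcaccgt
H2AFX: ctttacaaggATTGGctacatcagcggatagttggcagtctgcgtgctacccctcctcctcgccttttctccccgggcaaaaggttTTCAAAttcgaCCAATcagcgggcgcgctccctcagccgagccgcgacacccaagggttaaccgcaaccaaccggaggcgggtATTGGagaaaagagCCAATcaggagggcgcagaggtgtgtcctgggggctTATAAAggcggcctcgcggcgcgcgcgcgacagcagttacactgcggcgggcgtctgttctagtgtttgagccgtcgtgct

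All 4 hold CCAAT on at least 1 strand and TTTGAA on 1 strand, H2AFZ and H2AFX also hold TATAAA, and of the 4 only HIST1H2BH holds ATTTGCAT, the octamer bound by OCT1. CCAAT was found in 36 of 43 replication-dependent and 5 of 8 replication-independent promoters, against 34.6% of all 35116 promoters. TTTGAA was found in 19 of 43 and 1 of 8, against 15.2%, and ATTTGCAT in 16 of 43 and 1 of 8, against 1.77%. TATAAA was found in 28 of 43 and 3 of 8, against 11.5%.

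TTTCGCGC was found in 11 of 43 and 0 of 8, against 0.515%, and TTCGAA in 0 of 43 and 1 of 8 (H2AFV), against 1.45%. By histone type, CCAAT was in 12 of 12 H2A, 10 of 10 H2B, 9 of 9 H3 and 4 of 4 H1 promoters but in 1 of 8 H4 promoters, and ATTTGCAT was in 9 of 12 H2A and 6 of 10 H2B promoters, 1 of 9 H3 promoters and no H4 or H1 promoter. TATAAA was in 9 of 12 H2A, 6 of 10 H2B, 6 of 9 H3, 5 of 8 H4 and 2 of 4 H1 promoters, and TTTGAA in 4 of 12, 4 of 10, 5 of 9, 5 of 8 and 1 of 4 in the same order. Matches are descriptions of these windows only.

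Several H2A and H2B genes lie head to head, so that their promoter windows share bases. HIST3H2A and HIST3H2BB shared 271 bases, and both were called higher in WT cells with Nutlin-3a and lower in KO than in WT cells with Nutlin-3a. HIST3H2BB needed its WT Nutlin-3a libraries to pass the filter, so its calls lend a shared direction no support. HIST2H2BE and HIST2H2AC shared 265 bases, and of them HIST2H2BE was called in the WT response while HIST2H2AC was not, at a log2 fold change of 0.20 ± 0.30. HIST1H2AG and HIST1H2BJ shared 253 bases, and of them HIST1H2BJ was called higher in WT cells with Nutlin-3a while HIST1H2AG, at 0.47 ± 0.38, was not. HIST1H2BJ also needed its WT Nutlin-3a libraries to pass the filter, so its call lends the direction no support. Whether the members of the last 2 pairs differ in response was not tested.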

How the data were processed

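The authors deposited whole read counts per gene and RPKM values (counts scaled to gene length and depth) for 8 strand-specific poly(A) libraries, per the file headers and labels. Per the submitters' processing notes, HTSeq 0.8.0 was among the tools, with TopHat2 2.1.1 and Bowtie2 2.2.9.0, and the build was GRCh37 (hg19). No source used here gives the annotation, the read length, the strand setting or the treatment of multi-mapped reads.

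Samples were grouped by their titles, which also number the replicates. Totals were 28390405 to 38010075 reads, so precision at low counts is set by counting and by 2 replicates a group. Replicates of a group differed by more than counting noise, with a chi-square per gene of 2.38 to 9.19. From the counts, edgeR 4.0.16 (R 4.3.3) fitted 4 group means over 8 libraries after filterByExpr (15879 of 25369 genes, cutoff 0.315 CPM) and TMM scaling, leaving 4 residual degrees of freedom at a common biological coefficient of variation of 0.0424. Its quasi-likelihood F test was applied to 5 comparisons, with Benjamini-Hochberg adjustment over the tested genes and a threshold of 0.05. The scripts were tested on simulated data. SE is the absolute log2 fold change divided by the square root of F. The deposited RPKM served for levels between genes.

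Members and lists were chosen with earlier results of these data known. Named genes were taken from the tested replication-independent members and H2AFX, the 10 replication-dependent members with highest mean CPM, up to 8 further called ones per comparison and up to 3 genes per list. NPAT and CENPA, plotted with the lists, and the antisense gene, the pseudogene and HIST1H2BJ were chosen after their values were seen. One gene of the identity list is not reported here. DESeq2 1.42.0, other scalings, no filter, a replicate block and left-out libraries were the alternatives. Gene models came from GENCODE v29 (GRCh38), and promoters and symbols from RefSeq (GRCh38.p14). That build is not the authors', so its coordinates are given for those sequences alone.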

Additional observations from a re-analysis of the deposited data

Results flagged for a closer look

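For 9 histone genes the Nutlin-3a response differed between KO and WT cells in edgeR's test of the difference itself, given here as the KO response minus the WT response on the log2 scale. H2AFX (0.92, adjusted p = 1.69e-07), H2AFZ (0.66, adjusted p = 1.99e-06), H1FX (0.36, adjusted p = 0.0013) and H2AFV (0.21, adjusted p = 0.0223) had the higher value in KO cells. HIST3H2A (-1.11, adjusted p = 1.03e-05), HIST2H2BE (-1.17, adjusted p = 0.000599), H2AFY (-0.31, adjusted p = 0.000985), HIST1H2AC (-1.66, adjusted p = 0.0196) and HIST1H3E (-2.18, adjusted p = 0.0303) had the lower value in KO cells. H2AFX, H2AFZ, H1FX, HIST3H2A, HIST2H2BE and H2AFY kept the call in each of the 14 alternative fits, and H2AFV, HIST1H2AC and HIST1H3E did not.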

How the results depend on the processing

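Of 70 called results for single named histone genes, 43 kept their call in all 14 alternative fits and 27 lost it in at least 1, mostly with a library left out. The number of histone genes called moved by over 1.5 times in KO against WT cells with Nutlin-3a alone, with 29 in the fit as reported and 16 with the 3 libraries that held reads of unrelated genes left out. With each library left out in turn it ranged over 19 to 26 there, 20 to 28 in the WT response (27 as reported), 7 to 12 in the KO response (9), 10 to 14 in KO against WT cells with DMSO (14) and 6 to 10 for the difference of the responses (9). DESeq2's Wald test called 20, 18, 7, 11 and 8 histone genes in those 5 comparisons in the same order, which in the WT response were 11 higher and 7 lower, and without a filter on low counts they were 24, 26, 10, 13 and 9.

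The sums of replication-dependent genes depended on HIST3H2A. Without it the ratio of Nutlin-3a over DMSO was 1.02 in KO cells in place of 1.14, and 1.58 in WT cells in place of 1.96, and the ratio of KO over WT was 1.17 with DMSO in place of 1.27, by the removal of 1 gene with 35.4% of the reads.

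Same-numbered libraries did not deviate together, with correlations of their deviations from the group means of -0.02 to 0.23, so the numbers were not taken as pairs. With a replicate block 29, 27, 10, 14 and 9 histone genes were called in the 5 comparisons above, and no called named result lost its call.

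Only results that were not called changed sign. In the upper-quartile fit these were H1FX (0.005) and HIST1H4I (0.009) in the KO response. With the 3 libraries left out they were H3F3A in the WT response (0.457) and in KO against WT with DMSO (0.324), H1FX (0.006), HIST1H1C (-0.058) and HIST1H4I (0.117) in the KO response, HIST1H2BK in KO against WT with DMSO (0.001) and HIST1H1C in the difference of the responses (-0.354).

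With each library left out in turn, the log2 values crossed 0 as follows. In the WT response H2AFJ ranged over -0.081 to 0.136, H3F3A over -0.824 to 0.11, HIST2H2AC over -0.022 to 0.422 and HIST1H4I over -0.737 to 0.2. In the KO response H3F3A ranged over -0.453 to 0.513, HIST2H2BE over -0.021 to 0.049, HIST1H1C over -0.075 to 0.733 and HIST1H4I over -0.253 to 0.237. In KO against WT they were H3F3A (-0.633 to 0.325) and HIST1H2BK (-0.257 to 0.002) with DMSO, and H3F3B (-0.017 to 0.118), H3F3A (-0.238 to 0.728) and HIST2H2AC (-0.056 to 0.431) with Nutlin-3a. In the difference they were H3F3A (-0.016 to 0.966), HIST1H2BK (-0.146 to 0.125), HIST1H1C (-0.411 to 0.397), HIST1H2AG (-0.187 to 0.294) and HIST1H4I (-0.222 to 0.735). The cause was not tested. Depth limits the 43 replication-dependent members with under 200 reads.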
